A study of Mus musculus with 9 samples.

Results

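The genes described here are 10 Krüppel-like factors (KLFs): Klf2, Klf3, Klf4, Klf6, Klf7, Klf9, Klf10, Klf13, Klf15 and Klf16. They were found by their Ensembl identifiers among the 48526 genes of the count table, which holds 17 KLF genes in all. The cells were neural stem cells (NSCs) of mice labelled C57BL/6 (C57BL/6J in the methods of the study, 2 to 4 months old), isolated from the adult subependymal zone (SEZ), a neurogenic niche along the lateral ventricles, and grown as neurospheres in medium with EGF and FGF. The 0 h cells were compared with cells 1 h or 6 h after differentiation had been induced by withdrawing EGF, but not FGF, on an adhesive substrate (Matrigel). For fixed cells, the methods describe a period in medium with both factors between seeding and an early treatment, and whether the RNA-seq cultures, 0 h included, were seeded in that way is not given in the sources used here. Each time point had 3 libraries, numbered as replicates 1, 2 and 3, and the comparisons were made within each number. The 10 genes were chosen by earlier results of these same counts, and the contrast that led to the choice was not recorded, so the values below describe the genes and are not independent evidence of a change.

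KLFs are transcription factors that bind GC-rich DNA (GC boxes and CACCC boxes) through zinc fingers near their carboxyl end, and they share this DNA preference with the SP factors. The amino-terminal part differs between members. Klf2, Klf4, Klf5, Klf6 and Klf7 are mostly known as activators that recruit histone acetyltransferases. Klf3, Klf8 and Klf12 are repressors that bind CtBP, whereas Klf9, Klf10, Klf11, Klf13 and Klf16 recruit the SIN3A corepressor complex. Several KLFs are early response genes, induced by serum, growth factors or hormones, and in the nervous system members of the family either limit or favour axon growth.

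Because KLF proteins bind GC boxes and CACCC boxes, the start regions of the KLF genes themselves were searched for these motifs. RefSeq windows on GRCm38.p6, from 250 bases before to 50 bases after the transcription start, were at hand for 8 of the 10 genes and not for Klf10 and Klf16. The GC box GGGCGG was present on either strand in 7 of these 8 windows (Klf9 had none), and in 35.7% of the 32851 windows of all genes. The CACCC box was present in 6 of 8, with none in Klf4 and Klf6, against 57.5% of all windows. These matches describe the letters of the windows and show no binding. For the 5 genes with a window that were called changed in at least 1 comparison, 28 bases around the GC box nearest to the start are given in the direction of the gene, 5′ to 3′, with the motif, or its reverse complement CCGCCC, in capitals.
Klf4 (chr4:55532560-55532587, minus strand): agaaaggcaggGGGCGGggcctggcggc
Klf6 (chr13:5861415-5861442, plus strand): ggtaccgtgggGGGCGGagctccaagct
Klf3 (chr5:64803421-64803448, plus strand): cctcccagcccGGGCGGctgtggcggct
Klf7 (chr1:64121590-64121617, minus strand): cgcgcaaaacgGGGCGGagggagggagt
Klf13 (chr7:63938905-63938932, minus strand): ccggggccggtCCGCCCacaccgagccg
The motif began at position -101 from the start in Klf4, -63 in Klf6, -89 in Klf3, -217 in Klf7 and -6 in Klf13. In the Klf4 window, 3 further GC boxes lay between -217 and -189.

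The half-site TGACG of the cAMP response element, which CREB proteins bind, was present in 6 of the 8 windows and in 20.8% of all windows. Klf6 and Klf7 had none. The half-sites of Klf4, which rose and fell, and of Klf9, which did not pass the test, are given as above, with TGACG or its reverse complement CGTCA in capitals.
Klf4 (chr4:55532691-55532718, minus strand): tgcctggctggCGTCAcggcctggcccc
Klf9 (chr19:23141169-23141196, plus strand): ggcctggattgTGACGtgatgggattct
The complete element TGACGTCA, which holds the half-site on both strands, was in 0 of 8 windows (1.79% of all), the CArG box of serum response factor in 0 (1.63%) and the TATA box TATAAA in 0 (13.6%). An AP-1 site (TGANTCA) was found in 1 window, that of Klf9, against 7.81% of all.

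Expression is given as CPM, the counts of a gene per 1000000 counts of the library after scaling with the TMM method of edgeR. Libraries held between 65871454 and 105592597 counts. Differences were tested in edgeR (quasi-likelihood test) for 18858 genes left after its filter on low counts, with the replicate number as a block, because equal numbers deviated in the same direction from their time points. A gene is called changed at a Benjamini-Hochberg adjusted p under 0.05 over all tested genes, and all 10 KLFs were tested. All 10 NSC markers in the list (among them Vim) were above 1 CPM, with a sum of 7636 to 10281 CPM per library. Markers of other cells were lower, with 0 of 10 microglia and macrophage markers, 1 of 7 pericyte and fibroblast markers and 2 of 9 endothelial markers above a mean of 1 CPM. Of the oligodendrocyte markers, 2 of 6 were above it, with a sum of 49.0 to 84.7 CPM at 0 h and Cnp the highest (69.7 CPM on average). Of the ependymal markers, 3 of 5 were above it, with a sum of 48.4 to 89.8 CPM at 0 h and Foxj1 the highest (57.6 CPM). The sum of the neuronal markers lay between 19.7 and 38.7 CPM at 0 h, between 26.1 and 41.9 at 1 h and between 58.5 and 121.5 at 6 h. Syt1 was the highest neuronal marker, with a mean of 22.8 CPM before the induction and 70.3 CPM after 6 h. Over that interval 4 of the 6 neuronal markers were called higher, against 17.4% of all tested genes, and 0 of the 6 without the block. The call of Snap25 was lost without replicate 1 or 3 of 0 h or replicate 2 of 6 h. Dcx (log2 fold change -0.35) and Stmn2 (-0.77) had lower means, were not called and lay under 1 CPM on average. In such bulk samples, fewer cells of a type and less RNA per cell cannot be told apart.

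At 0 h Klf6, Klf10 and Klf3 had the highest levels per kilobase in the family. Levels of different genes are compared as RPKM, the CPM per kilobase of the exons of the gene. This length joins all annotated exons, 11243 bases for Klf3 against 5221 in its longest transcript. For Klf10 the lengths were 4179 and 3044, and for Klf6 4391 and 4225. The order of these 3 genes therefore depends on the length used. Klf6 had 27.2 ± 1.51 RPKM (SD, n = 3), Klf10 had 25.3 ± 6.11 and Klf3 had 18.2 ± 1.66, and the ranges of neighbours in this order overlapped. A middle group followed without overlap, with Klf13 at 8.49 ± 1.01, Klf16 at 7.68 ± 1.87 and Klf7 at 6.74 RPKM, again with overlapping ranges. Klf9 was next at 3.68 RPKM, below the range of Klf7. Klf15 (2.68 ± 0.169) and Klf4 (2.41 ± 0.244) overlapped each other and lay below Klf9. Klf2 was the lowest at 0.38 ± 0.215 RPKM.

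**Figure D1:**
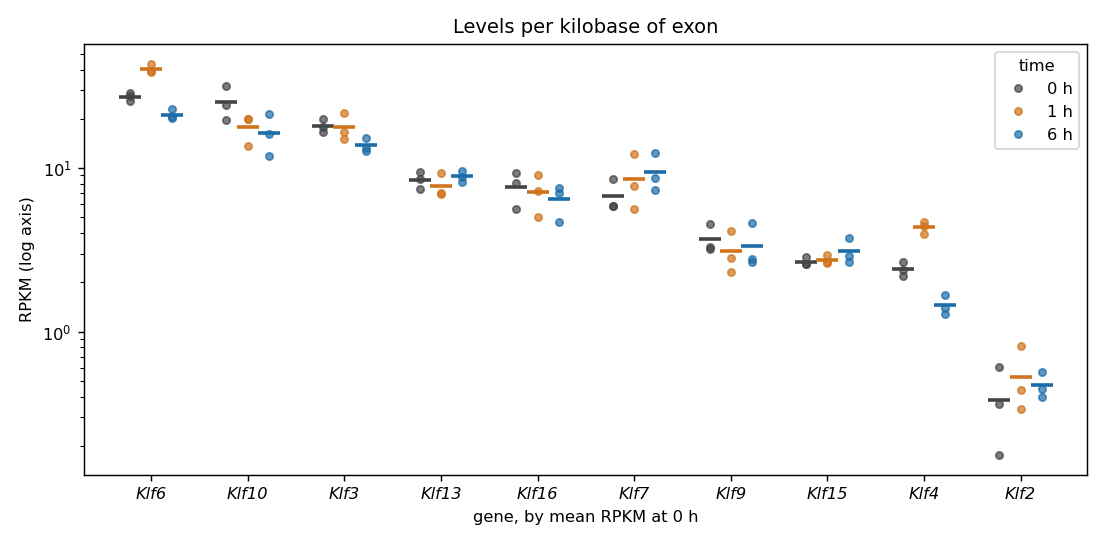
RPKM of the 10 KLF genes on a log axis, ordered by their mean at 0 h, with 1 point per library (3 per time point, coloured by time) and a bar at the mean. Klf6, Klf10 and Klf3 lie above 10 RPKM in all 9 libraries, Klf2 lies below 1, and the Klf4 points separate by time.

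The mean shares of single genes in the summed level of the family differed between the time points, with overlapping ranges for Klf10 at 0 h and 6 h. The RPKM of all 17 KLF genes in the table summed to 108.4 ± 3.78 at 0 h, 116.2 ± 13.0 at 1 h and 90.6 ± 7.04 at 6 h (SD, n = 3). Klf6 made up 25.2% ± 2.15 of that sum at 0 h, 35.0% ± 1.87 at 1 h and 23.5% ± 1.88 at 6 h. The share of Klf10 was 23.3% ± 4.96, 15.3% ± 2.09 and 18.0% ± 4.14 at these times, and that of Klf7 was 6.21% ± 1.35, 7.22% ± 2.05 and 10.3% ± 2.3. Klf4 contributed 2.23% ± 0.303 at 0 h, 3.81% ± 0.731 at 1 h and 1.6% ± 0.163 at 6 h. These shares rest on the same exon lengths, and a higher share of Klf6 by itself lowers those of the others. Differences between them were not tested.

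The first question is what the KLFs did within 1 h of the induction. Klf4 and Klf6 rose and Klf10 fell, which gives 2 of 10 higher and 1 of 10 lower. Over all tested genes, 1.36% were called higher and 2.14% lower at this time, 661 genes in all. That number was 257, 213 and 219 without 0 h replicate 1, 2 or 3 and 327 without 1 h replicate 1, each with more genes higher than lower, while the members called were 3 to 4 in these fits. The other 7 did not pass the test, and the median log2 fold change of the 10 genes was -0.01, against 0.001 over all tested genes. With time point as the only factor, 0 of the 10 were called, against 0.0424% of all genes.

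By 6 h the direction of both early risers had turned. Klf4, Klf10, Klf3, Klf6 and Klf16 were lower than at 0 h and Klf7 was higher, which gives 5 of 10 lower and 1 of 10 higher, where 17.5% of all tested genes were lower and 17.4% higher. These 6581 genes became 4350 without 0 h replicate 2. The median log2 fold change of the 10 genes was -0.21. Without the block 1 of the 10, Klf4, was called (2.42% of all genes). Between 1 h and 6 h, Klf4, Klf6 and Klf3 fell and Klf13 rose, which is 3 of 10 lower and 1 of 10 higher, against 17.5% and 18.0% of all genes. Without the block, 2 of the 10 were called in this comparison (2.14% of all genes), namely Klf4 and Klf6. The 3 comparisons share libraries, so a high or low value at one time point enters more than one of them.

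**Figure D2:**
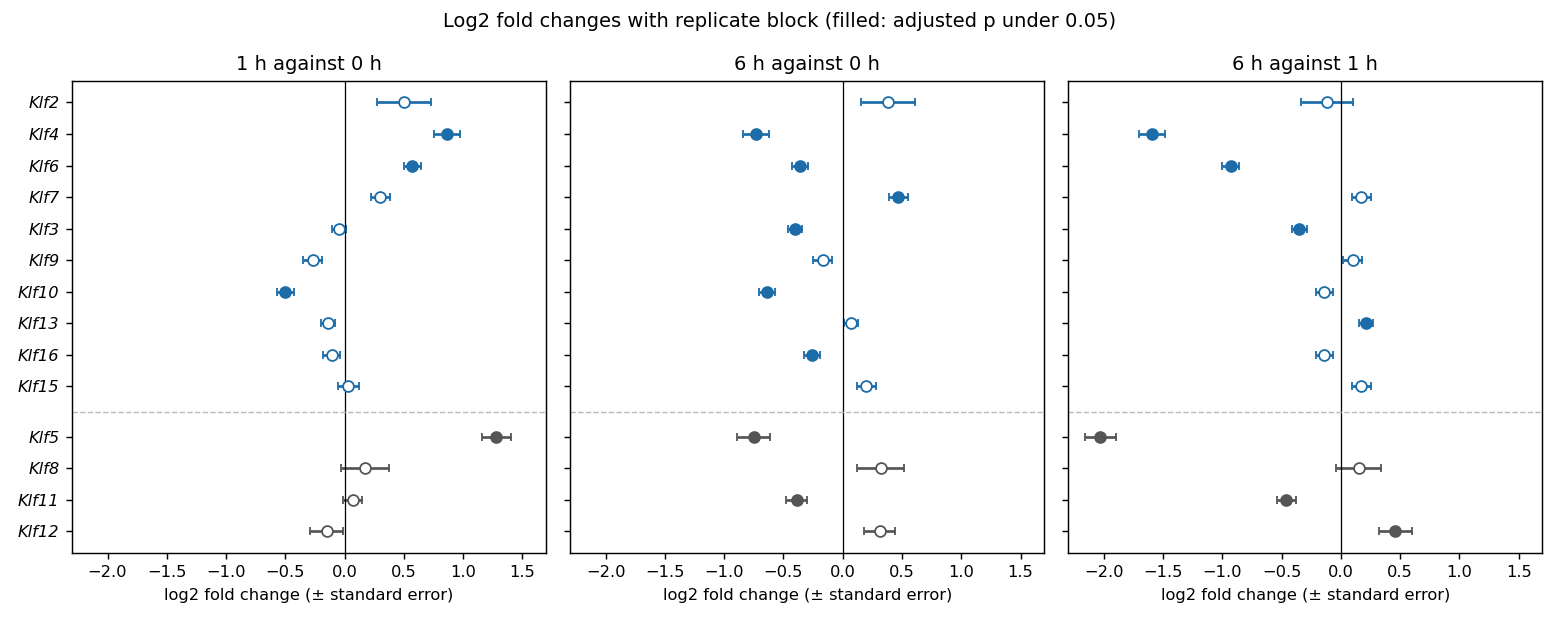
Log2 fold changes with their standard errors (horizontal bars) from the edgeR fit with the replicate block, in 3 panels for 1 h against 0 h, 6 h against 0 h and 6 h against 1 h. Blue points are the 10 genes, grey points below the dashed line are 4 other KLF genes, and filled points have an adjusted p under 0.05. Klf4, Klf6 and Klf5 lie to the right of 0 in the first panel and to the left in both others.

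Among the activators, Klf4 had the largest changes of the 10 genes. It is one of the factors that reprogramme somatic cells to pluripotency and is needed for epithelial differentiation in gut and skin. Its level was 7.29, 6.62 and 8.11 CPM in replicates 1, 2 and 3 at 0 h. At 1 h it was 12.1, 13.5 and 14.3 CPM, and at 6 h it was 4.22, 5.13 and 3.92 CPM. The 3 time points did not overlap, with the 1 h libraries highest and the 6 h libraries lowest. On the log2 scale it changed by 0.86 (standard error 0.11, adjusted p = 6.7e-04) at 1 h and -0.73 (0.11, 2.8e-04) at 6 h against 0 h, and -1.59 (0.11, 5.4e-07) from 1 h to 6 h. Each replicate number had the same direction, with log2 differences of 0.73, 1.03 and 0.82 at 1 h. Without the block the adjusted p was 0.21, 0.0432 and 0.00412 in the same 3 comparisons by edgeR, and 2.5e-06, 5.6e-05 and 5.0e-24 by DESeq2.

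Klf6, a widely expressed early response gene, followed the same course at a higher level. It measured 112.6, 120.5 and 125.8 CPM at 0 h in replicates 1 to 3. These values became 191.0, 173.2 and 169.4 CPM at 1 h and 88.8, 100.9 and 89.9 CPM at 6 h. All 1 h libraries were above all 0 h libraries, and all 6 h libraries were below them. The gene was 1.49 times its 0 h level at 1 h (log2 fold change 0.57 with a standard error of 0.07, adjusted p = 3.4e-04). At 6 h it was 0.78 times that level (-0.36, 0.07, 9.9e-04), and from 1 h to 6 h it fell by 0.93 on the log2 scale (adjusted p = 6.3e-07). Without the block the adjusted p was 0.105, 0.0624 and 0.00348 by edgeR, and 5.5e-07, 0.00286 and 1.4e-20 by DESeq2.

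Klf7, which is known for its role in axon outgrowth, changed in another way. Its levels were 69.4, 47.6 and 47.4 CPM at 0 h, 99.7, 63.5 and 45.8 CPM at 1 h and 100.2, 70.2 and 59.7 CPM at 6 h. Replicate 1 was the highest at every time point, and the time points overlapped. Within the numbers, the gene was higher at 6 h than at 0 h in 3 of 3, with log2 differences of 0.53, 0.56 and 0.33, and the fit gave 0.47 (standard error 0.08, adjusted p = 7.7e-04, and 0.478 without the block). At 1 h it was higher in 2 of 3 numbers and 0.05 lower on the log2 scale in replicate 3, and it did not pass the test (log2 fold change 0.30, adjusted p = 0.0726). Without 0 h replicate 3 or 1 h replicate 3 this early difference passed, at an adjusted p of 0.0273 and 8.7e-04. It also passed in DESeq2 with the block (0.0115) and with GC and length trends taken out (0.00431).

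Klf2, an endothelial and T cell factor that responds to blood flow, was barely detected, with 24 to 112 counts per library. It had 0.664, 0.324 and 1.12 CPM at 0 h, 0.813, 0.624 and 1.5 CPM at 1 h and 0.828, 0.737 and 1.05 CPM at 6 h. Replicate 3 held the highest value at each time, and all time points overlapped. The log2 fold change was 0.50 at 1 h with a standard error of 0.23, the widest error among the 10 genes, and the adjusted p was 0.277. Klf2 and Klf4 are both active in endothelium, so endothelial markers are given beside them. The sum of the 9 markers lay between 5.94 and 21.1 CPM at 0 h, between 6.15 and 19.6 at 1 h and between 4.25 and 11.8 at 6 h. Of these, 6 were tested, 0 were called at 1 h and 3 were lower at 6 h than at 0 h, where 17.5% of all tested genes were lower. Flt1 (6.34 CPM on average) and Kdr were the ones above 1 CPM, Pecam1, Cdh5, Tie1, Tek, Cldn5, Emcn and Egfl7 were below it, and their part in the Klf2 and Klf4 values was not tested.

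**Figure D3:**
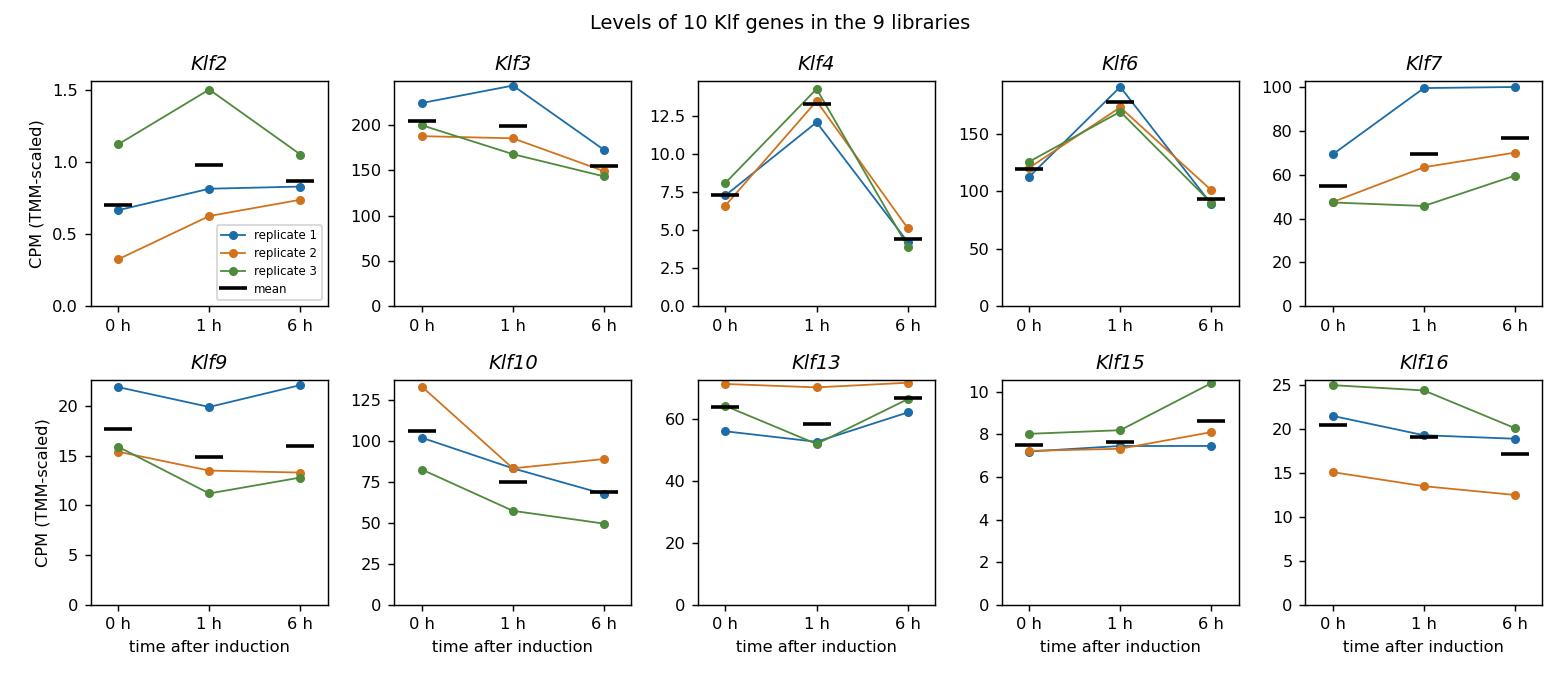
TMM-scaled CPM of each of the 10 KLF genes against time, with 1 line per replicate number, a black bar at the mean of the 3 libraries and a vertical axis that starts at 0 in each panel. The 3 lines of Klf4 and Klf6 rise to 1 h and fall below their start at 6 h, whereas in Klf7, Klf10 and Klf16 the lines lie apart and the ranges of the time points overlap.

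Klf3, the CtBP-binding repressor of the group, fell late. Its levels were 224.5, 187.9 and 200 CPM at 0 h, 243.8, 185.5 and 168.0 CPM at 1 h and 172.7, 149.2 and 143.4 CPM at 6 h. The 6 h libraries were all below the 0 h libraries, while those of 1 h overlapped with both. At 1 h the log2 fold change was -0.05 with an adjusted p of 0.731, and the numbers differed in sign. At 6 h it was -0.40 (standard error 0.06, adjusted p = 3.5e-04, and 0.198 without the block), with a fall in 3 of 3 numbers. From 1 h to 6 h it was -0.35 (adjusted p = 9.3e-04, and 0.247 without the block). The exons of Klf3 overlap Gm20033 on the opposite strand, which had 150 to 296 counts against 12085 to 16935 of Klf3. The strand setting of the counting is not given in the sources used here.

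Among the SIN3A-binding repressors, Klf10 was lower than at 0 h at both later times. Also called TGF-β inducible early gene, it was 101.9, 133.1 and 82.5 CPM at 0 h in replicates 1 to 3. At 1 h it was 83.2, 83.2 and 57.3 CPM, and at 6 h 67.5, 88.9 and 49.5 CPM. The time points overlapped because replicate 2 was high and replicate 3 low at 0 h and 6 h, but the gene was below its own 0 h level in 3 of 3 numbers at both times. On the log2 scale the change was -0.50 at 1 h (standard error 0.07, adjusted p = 0.00176) and -0.64 at 6 h (0.07, 2.4e-05). Between 1 h and 6 h it was -0.14 with an adjusted p of 0.151. Without 1 h replicate 2 this last difference was called, at 0.0192. Without the block, the adjusted p was 1 at 1 h and 0.242 at 6 h against 0 h by edgeR, and 1 and 0.133 by DESeq2.

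Klf16, described as a repressor of dopamine receptor promoters, was 21.5, 15.1 and 25.0 CPM at 0 h, 19.3, 13.5 and 24.4 CPM at 1 h and 18.9, 12.5 and 20.1 CPM at 6 h. Replicate 2 was the lowest at each time, and the time points overlapped. It was lower at 6 h than at 0 h in 3 of 3 numbers (log2 fold change -0.26, standard error 0.07, adjusted p = 0.00811). The call needed 0 h replicate 2 and 6 h replicate 3 (adjusted p up to 0.0547 when either was left out), and it was lost without the block, at 0.719.

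Klf13, first described as a late regulator of a chemokine gene in T lymphocytes, had 56.1, 71.4 and 64.3 CPM at 0 h, 52.7, 70.3 and 52.0 CPM at 1 h and 62.2, 71.8 and 66.5 CPM at 6 h. Its call between 1 h and 6 h rested on a small difference (log2 fold change 0.21, standard error 0.06, adjusted p = 0.0216), higher in 3 of 3 numbers, with replicate 2 nearly level. This call was lost when replicate 1 or 3 of either time point was left out (up to 0.105), without the block (0.528), in a fit of only the 6 libraries compared (0.054), and once GC and length trends were taken out (0.10, adjusted p = 0.184). Against 0 h the gene did not pass the test at 1 h (-0.14) or at 6 h (0.07).

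Klf9, a thyroid hormone and glucocorticoid response gene of maturing neurons, was 21.9, 15.4 and 15.9 CPM at 0 h, 19.9, 13.5 and 11.2 CPM at 1 h and 22.1, 13.3 and 12.8 CPM at 6 h. It was lower at 1 h in 3 of 3 numbers, without passing the test in edgeR (log2 fold change -0.27, standard error 0.08, adjusted p = 0.089). DESeq2 with the block gave an adjusted p of 0.0464 for the same difference. Klf15, a glucocorticoid target in muscle and liver that belongs to neither repressor group, was nearly level. Its values were 7.19, 7.22 and 8.02 CPM at 0 h, 7.45, 7.32 and 8.19 CPM at 1 h and 7.45, 8.1 and 10.4 CPM at 6 h, with the highest value in 6 h replicate 3. The log2 fold change of Klf15 was 0.03 at 1 h and 0.20 at 6 h (adjusted p = 0.877 and 0.0819 in edgeR). Without 6 h replicate 1 the 6 h difference was called, at an adjusted p of 0.0441.

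Of the 7 KLF genes outside the 10, Klf5 shared the course of Klf4 and Klf6. It is an activator of proliferating gut epithelium and of pluripotent cells, and it had 1.51, 1.84 and 1.75 CPM at 0 h, 4.03, 4.66 and 3.7 CPM at 1 h and 0.828, 1.17 and 1.02 CPM at 6 h. Its time points did not overlap. Its log2 difference was 1.28 at 1 h (standard error 0.12, adjusted p = 7.9e-05) and -0.75 at 6 h against 0 h (0.14, 0.00108), and its difference from Klf4 was not tested. Without the block the adjusted p of Klf5 was 0.105 and 0.0802 by edgeR, and 2.0e-08 and 0.00546 by DESeq2. Klf11, the closest relative of Klf10, was lower at 6 h than at 0 h (-0.39, adjusted p = 0.0033) and than at 1 h (-0.46, 0.00103). Both calls were lost in edgeR without the block (0.502 and 0.4). Klf12 was higher at 6 h than at 1 h (0.46, adjusted p = 0.0185), a call that was lost without 6 h replicate 3 (0.0896), in DESeq2 with the block (0.102) and without the block (0.635). Klf8 was near 1 CPM and was not called, and Klf1, Klf14 and Klf17 were under 1 CPM, the last 2 of them too low to be tested.

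The SP factors, which compete with KLFs for GC boxes, changed little at 1 h, when Sp3 was lower (log2 fold change -0.23, adjusted p = 0.0251) and the other 5 tested were not called. The Sp3 call at 1 h was lost without any 1 of the 0 h libraries or 1 h replicate 1. At 6 h against 0 h, 4 of 6 were lower and 1 higher, against 17.5% and 17.4% of all tested genes. Sp4 fell by 0.43 on the log2 scale and Sp3 by 0.23, and both were called in 9 of 9 leave-one-out fits. Without the block their adjusted p was 0.128 and 0.18 by edgeR, and 0.0271 and 0.0985 by DESeq2. The calls of Sp1 (-0.24), Sp2 (-0.19) and Sp9 (0.44) were kept in 5, 5 and 4 of the 9 fits. For Sp1 and Sp2 the libraries needed were replicates 2 and 3 of 0 h and replicates 1 and 2 of 6 h, and for Sp9 they were all of 0 h and replicates 1 and 2 of 6 h. Sp5, Sp6 and Sp7 were not tested, and Sp8 was under 1 CPM.

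The proteins through which KLFs act were next. Among 11 corepressor genes 0 were called at 1 h by edgeR with the block, and at 6 h against 0 h 1 was higher and 3 were lower. Of all tested genes, 1.36% were higher and 2.14% lower at 1 h, and 17.4% and 17.5% at 6 h. Ctbp2, which encodes a CtBP protein, rose by a log2 fold change of 0.22 (adjusted p = 0.00209). The other CtBP gene, Ctbp1, had a mean of 231.3 CPM at 0 h and did not pass the test (-0.01, adjusted p = 0.915). The histone deacetylase genes Hdac1 (-0.27) and Hdac2 (-0.22) fell. Sin3a was lower by a small margin (-0.16, adjusted p = 0.0327) that was kept in 4 of 9 fits, and was lost without any 0 h library or 6 h replicate 1 or 2. Of 6 coactivator genes, 0 were called at 1 h, and at 6 h 2 were higher and 2 lower, against the same shares of all tested genes. The acetyltransferase genes Crebbp (0.27, adjusted p = 0.00601) and Ep300 (0.23, 0.018) were higher, and the acetyltransferase gene Kat2a (-0.25, 7.6e-04) was lower. The other lower gene was Cbx3 (-0.17, 0.0108), which encodes a heterochromatin protein known mostly for repression and is no acetyltransferase. The Ep300 call needed replicates 1 and 2 of 0 h and replicate 3 of 6 h, and the Cbx3 call needed replicate 2 of 0 h and replicates 2 and 3 of 6 h.

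Of 7 genes for the turnover of KLF proteins, 2 were lower at 1 h, and at 6 h 4 were lower and 1 higher. Of all tested genes, 2.14% were lower at 1 h, and 17.5% were lower and 17.4% higher at 6 h. Vhl, a ubiquitin ligase subunit, was lower at 1 h (log2 fold change -0.30, adjusted p = 0.0124) a call that needed replicates 1 and 3 of 0 h and replicate 1 of 1 h. At 6 h the ligase gene Siah1a (-0.38) and the deubiquitinase gene Usp10 (-0.21) were lower and the ligase gene Fbxw7 was higher (0.22). The kinase ERK5 (Mapk7) and the MEF2 factors switch on Klf2 and Klf4 in endothelium. Of 7 such genes tested, 0 were called at 1 h and 3 were higher at 6 h, where 17.4% of all tested genes were higher. Mef2c had the largest difference, with a mean of 21.6 CPM before the induction and 80.2 CPM after 6 h (log2 fold change 1.88, standard error 0.06, adjusted p = 2.2e-09). Mapk7 was also higher (0.48, adjusted p = 3.6e-05), as was Mef2d (0.18, 0.0261), whose call needed replicates 1 and 2 of both time points and was lost when GC and length trends were taken out (0.105).

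Klf9 and Klf15 are glucocorticoid targets, and of 12 genes of that response 1 was higher at 1 h (1.36% of all tested genes). This was the clock gene Per1 (log2 fold change 0.63, adjusted p = 0.0022). At 6 h against 0 h, 2 of 12 were higher and 5 lower, against 17.4% and 17.5% of all tested genes. The kinase gene Sgk1 (-1.22, adjusted p = 6.3e-05) and the chaperone gene Fkbp5 (-0.49, 6.4e-05) were lower. Cdkn1c, a cell cycle inhibitor, was higher (0.79, 0.0126) at under 1 CPM, and the call needed replicate 2 of 0 h and replicates 1 and 2 of 6 h. Klf10 is a TGF-β target, and of 11 genes of that pathway 1 was higher and 1 lower at 1 h (1.36% and 2.14% of all tested genes). Ccn2, a matrix-associated protein gene, rose from 5.55 to 18.9 CPM (1.72, standard error 0.23, adjusted p = 0.00109). Skil, an inhibitor of the pathway, was lower (-0.32, adjusted p = 0.0183), though not without any 1 of the 0 h libraries. At 6 h, 5 of 11 were lower and 0 higher, against 17.5% and 17.4% of all tested genes. Among the lower ones was the receptor gene Tgfbr1 (-0.48, 1.8e-04).

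Of 15 tested genes described as KLF targets in other tissues, 2 were higher at 1 h, and at 6 h 2 were higher and 2 lower. The shares of all tested genes were 1.36% higher at 1 h, and 17.4% higher and 17.5% lower at 6 h. The cell cycle inhibitor gene Cdkn1a, a target of Klf4 and Klf6, rose from 502.3 to 617.3 CPM at 1 h (log2 fold change 0.30, adjusted p = 0.00249) in 3 of 3 numbers. S1pr1, a Klf2 target in lymphocytes, rose at 1 h as well (0.45, adjusted p = 0.00113). At 6 h the clock gene Arntl was higher (0.84, adjusted p = 1.1e-06). The endothelial receptor gene Tek was lower (-0.83, 0.0188) at about 1 CPM, but not without 0 h replicate 1 or 6 h replicate 1.

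Genes with a pattern like that of the members with the largest changes were sought among 13606 genes with a mean of at least 1 CPM. Likeness was Pearson's r of log2 CPM over the 9 libraries after the mean of each replicate number was subtracted, so the points share libraries and 3 time points, and no p is given. The genes most like Klf4 were Akt1 (r = 0.996), Fzd1 (0.993) and Gm10654 (0.985), and Klf6 stood at 0.972. Those most like Klf6 were Klf5 (0.991), Ier5l (0.986) and Ccn1 (0.986). For Klf10 they were Ktn1 (0.983), Slc25a24 (0.972) and Phlda1 (0.971). Likeness was blind to size. Akt1 changed between 261.6 CPM at 0 h, 278.1 at 1 h and 249.1 at 6 h, whereas Ccn1 went from 13.0 CPM to 41.3 and 8.19. Among the 9 members at this level (Klf2 was below it), Klf10 was closest to Klf16 (0.825) and had a negative r with Klf7 (-0.799). Klf4 had a negative r with Klf13 (-0.823), which was not called against 0 h.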

How the data were processed

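RNA-seq of NSC cultures before and during early differentiation gave 9 libraries, 3 per time point. The authors deposited raw counts of paired-end reads per Ensembl gene, made with STAR 2.5.3a on mm10 (GRCm38) without normalisation. The kit is labelled as stranded, and the strand setting of the counting is not given in the sources used here. Positions and exon lengths were taken from GENCODE M21, symbols from a list of gene names (48058 of 48526 identifiers had a symbol), and promoter windows from RefSeq.

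Counts were analysed with edgeR 4.0.16 in R 4.3.3. Genes were kept with filterByExpr (minimum count 10, minimum total 15), scaled with TMM and fitted over all 9 libraries with time point and replicate number as terms (glmQLFit and glmQLFTest). Standard errors were derived from the F statistic. With time point means subtracted, libraries of equal number correlated at 0.733 to 0.8 (9 pairs), so the numbers, which come from the labels, pair the samples. Libraries of other numbers correlated at -0.462 to -0.314 (18 pairs). Given the positive values, these negative ones follow from the subtraction, because the deviations within a time point cancel out. The labels do not state what equal numbers share or whether cultures were separate, so p-values measure the spread between these samples only. The log2 CPM used a prior count of 2.

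The members and lists were chosen with earlier results of these data known. The genes named are all members, each KLF or SP gene past the threshold or under 1 CPM, up to 4 genes per other list with the largest changes past the threshold against 0 h, and the 3 genes most like each of Klf4, Klf6 and Klf10, the called members with the largest changes. Ctbp1 and some marker genes are named in addition, and the low levels of single marker genes are given by name for endothelium and neurons only. Alternatives were no block, DESeq2 1.42.0 with and without the block, RLE scaling, library totals, no filter, a minimum mean of 1 CPM, fits of the 6 libraries of a comparison alone, a threshold of 0.01, removed GC and length trends (splines with 4 degrees of freedom, 99.6% of genes), and leaving out each library or number. On simulated counts of 18858 genes with 200 changed at 1 h against 0 h, the fit with the block found 92.6% of the 1.5-fold changes and called 16 unchanged genes, and the fit without it found 17.6% and called 0. These counts were drawn from the fit with the block, with the mean of each number kept, so the rates cannot decide between the fits. Splicing was not analysed here, and 1 gene that the rule names is not reported here.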

Additional observations from a re-analysis of the deposited data

How the results depend on the processing

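Most calls in edgeR needed the replicate block. Without it, the members called were 0 at 1 h against 0 h, 1 at 6 h against 0 h and 2 at 6 h against 1 h, where the fit with the block called 3, 6 and 4. Of the SP, corepressor, coactivator, turnover and KLF target genes, edgeR without the block called 0 in every comparison. Over all 18858 genes the fit without the block called 8, 456 and 404, and with it 257 were higher and 404 lower at 1 h, 3282 and 3299 at 6 h against 0 h, and 3401 and 3309 between 1 h and 6 h. DESeq2 without the block called 2 members (Klf4 and Klf6) in each comparison, and 99, 1742 and 1695 of all genes. At an adjusted p under 0.01 edgeR with the block called 240, 4270 and 4246 genes, with no filter 1369 at 1 h, and without 1 library or number from 184 to 886, from 3656 to 8051 and from 4132 to 6657. At 1 h against 0 h, DESeq2 with the block called 5 members and 929 of all genes, and edgeR with no filter on low counts also called 5 members. Klf7 and Klf9 were gained in both. With GC and length trends removed, the log2 fold change of Klf13 at 6 h against 0 h reversed to -0.0012. Of the 30 member values, 30 kept direction and call with RLE scaling and 30 with library totals. Over the fits that left out a library or a number, 336 of 360 did, and 7 reversed, none of which was called. These were Klf3 at 1 h, from -0.13 to 0.06, Klf15 at 1 h, from -0.01 to 0.09, and Klf2 at 6 h against 1 h, from -0.35 to 0.16. Members called in these fits ranged from 3 to 4, from 5 to 7 and from 3 to 5. Klf2 had the fewest counts of the members, 24 to 112 per library, and what depth adds to its error was not tested.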
